A study of Bos taurus with 18 samples.

Results

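HSPD1, HSPE1, HSPA9, GRPEL1, TRAP1, CLPB, LONP1 and CLPP encode protein-folding factors and proteases of the mitochondrion, and their messenger RNA was followed through heat and recovery in bovine mammary cells. The 8 genes were taken by name from the 30642 genes of one count table, with earlier results of these data known. All 8 passed the low-count filter and so were among the 15158 genes tested.

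The cells were MAC-T, an immortalised epithelial line from the bovine udder, sequenced as 18 libraries in 6 groups of 3. Undifferentiated (UD) cells were kept for 4 days in basal medium, which held fetal bovine serum, insulin (5 µg/ml) and hydrocortisone (1 µg/ml). Differentiated (D) cells were kept as long in a lactogenic medium, the basal one with added serum (5%), ovine prolactin (5 µg/ml) and dexamethasone (10 µg/ml). NHSUD and NHSD were the unheated groups at 37 °C, and HSUD and HSD were heated at 42 °C for 1 h. D2R and D6R were differentiated cells that were heated in the same way and then returned to 37 °C for 2 h or 6 h. The experiment was run 3 times, and the sample titles number the replicates 1 to 3. A library's replicate number was taken here as its run. In each run the unheated groups shared one plate, the heated groups another and the recovery groups another again, so that heat or recovery and plate cannot be told apart.

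The libraries held 40.9 to 61.2 M (mega) counts, of which the 8 genes took 0.166% to 0.248%. Epithelial markers were present in every library, with KRT8 at 3140 to 4659 and KRT5 at 8583 to 17383 CPM (counts per 1 M counts, after TMM scaling of the library sizes). Of the leukocyte markers PTPRC reached at most 4 counts and CD3E at most 14 counts in a library, whereas CD68 was present in every library (0.481 to 1.84 CPM). The endothelial markers PECAM1 and CDH5 reached at most 15 and 2 counts. Among fibroblast markers COL1A1 reached at most 20 counts and COL1A2 at most 10 counts, whereas DCN lay between 417 and 813 CPM in all libraries. In these bulk samples fewer cells of a type and less RNA per cell cannot be told apart.

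Most mitochondrial proteins are made in the cytosol, cross the membranes unfolded and are folded inside. HSPA9 (mortalin), the HSP70 of the matrix, pulls them in and holds them, and GRPEL1 exchanges its nucleotide. Clients can then enter the folding chamber built of HSPD1 (HSP60) and closed by the lid HSPE1 (HSP10). TRAP1 is the HSP90 of mitochondria, and CLPB resolves aggregates in the intermembrane space. LONP1 and CLPP degrade damaged matrix proteins, CLPP as the peptidase partner of the unfoldase CLPX. Several of these genes are classical readouts of the mitochondrial unfolded protein response, a transcriptional programme that answers misfolding in the matrix. HSPD1 and HSPE1 stand next to each other in the bovine genome. In mammals the pair is known to lie head to head around a shared promoter that also answers the heat shock factor HSF1.

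HSPD1, the chamber, had a higher mean in all 4 heated or recovering groups than in the unheated ones. In NHSUD it measured 991, 966 and 753 CPM in runs 1, 2 and 3, and in NHSD 977, 948 and 714 CPM. In HSUD it measured 1225, 1159 and 1105 CPM, and in HSD 1105, 1262 and 1026 CPM. The lowest heated library therefore stood above the highest unheated one in both media, as for 3.99% of all genes in UD cells and 3.75% in D cells. After 2 h of recovery the values were 1032, 1335 and 1122 CPM, and after 6 h they were 1130, 1094 and 1014 CPM. Both groups lay above NHSD (as did 3.44% of all genes at 2 h and 5.57% at 6 h). All 12 heated or recovering libraries, from 1014 CPM upward, exceeded all 6 unheated libraries, which ended at 991 CPM. Of the 15158 genes 19 (0.125%) had this separation, which was noticed in the data and carries no test. The margin was narrow: scaled by library size alone, 11 of the 12 libraries exceeded all unheated ones.

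The HSPD1 difference was of like size in each comparison with unheated cells and did not pass the test in any single one. In UD cells it was 1.29-fold on heating (95% interval 1.03 to 1.61; log2 0.36 ± 0.15 SE; edgeR adjusted p = 0.999). In D cells it was again 1.29-fold (1.03 to 1.61; edgeR adjusted p = 0.996). The difference between these heat responses was -0.00 ± 0.21 on the log2 scale, so a medium-dependent response was not detected at this spread. At 2 h the level was 1.32-fold that of NHSD (1.06 to 1.65; edgeR adjusted p = 0.999). At 6 h it was 1.23-fold (0.983 to 1.53; edgeR adjusted p = 0.872), and from the end of heat to 6 h it differed by -0.07 ± 0.15 (log2). Unadjusted, HSPD1 alone of the 8 genes was below 0.05 in the 2 heat comparisons and at 2 h, against 4.21%, 4.42% and 3.08% of all genes. The difference was positive in all 3 runs in each of these 4 comparisons with unheated cells, as it was for 17.7% of all genes on heating in UD cells, 16% in D cells, 15% at 2 h and 20.3% at 6 h.

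HSPE1, the lid, had differences of the same sign but varied more between runs. Its unheated values were 377, 252 and 234 CPM in NHSUD and 346, 239 and 206 CPM in NHSD. On heating they were 587, 289 and 331 CPM in HSUD and 419, 327 and 280 CPM in HSD. Within each run every heated library was above its unheated partner, yet the groups overlapped. All 3 runs were higher for 17.7% of all genes in UD cells and 16% in D cells. Run 1 was high on average (mean 411 CPM against 296 and 269.9 CPM in runs 2 and 3). The heated level was 1.40-fold in UD cells (95% interval 0.951 to 2.06; edgeR adjusted p = 0.999) and 1.30-fold in D cells (0.882 to 1.91; edgeR adjusted p = 0.996). Recovery values were 367, 376 and 278 CPM at 2 h and 368, 296 and 291 CPM at 6 h. These were 1.29-fold and 1.21-fold the NHSD level and not past the test (edgeR adjusted p = 0.999 and 0.988). They were positive in 3 of 3 runs at both times, as were 15% of all genes at 2 h and 20.3% at 6 h. In the fit that does not pair libraries by run, the HSPE1 values on heating depended on single libraries. Leaving out 1 library there also leaves its run partner unmatched. In UD cells the log2 difference was 0.48 and went to 0.11 without the first HSUD library. In D cells it was 0.37, went to 0.20 without the first HSD library and up to 0.62 without another. Within runs 1, 2 and 3 it was 0.64, 0.20 and 0.50 in UD cells. In D cells it was 0.27, 0.46 and 0.44, so run 1 was the largest in UD cells only. Also without the pairing, leaving out the third or the first NHSD library gave 0.23 or 0.61 for HSPE1 at 2 h (0.37 with all). At 6 h it gave 0.13 or 0.52 (0.27 with all).

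**Figure D1:**
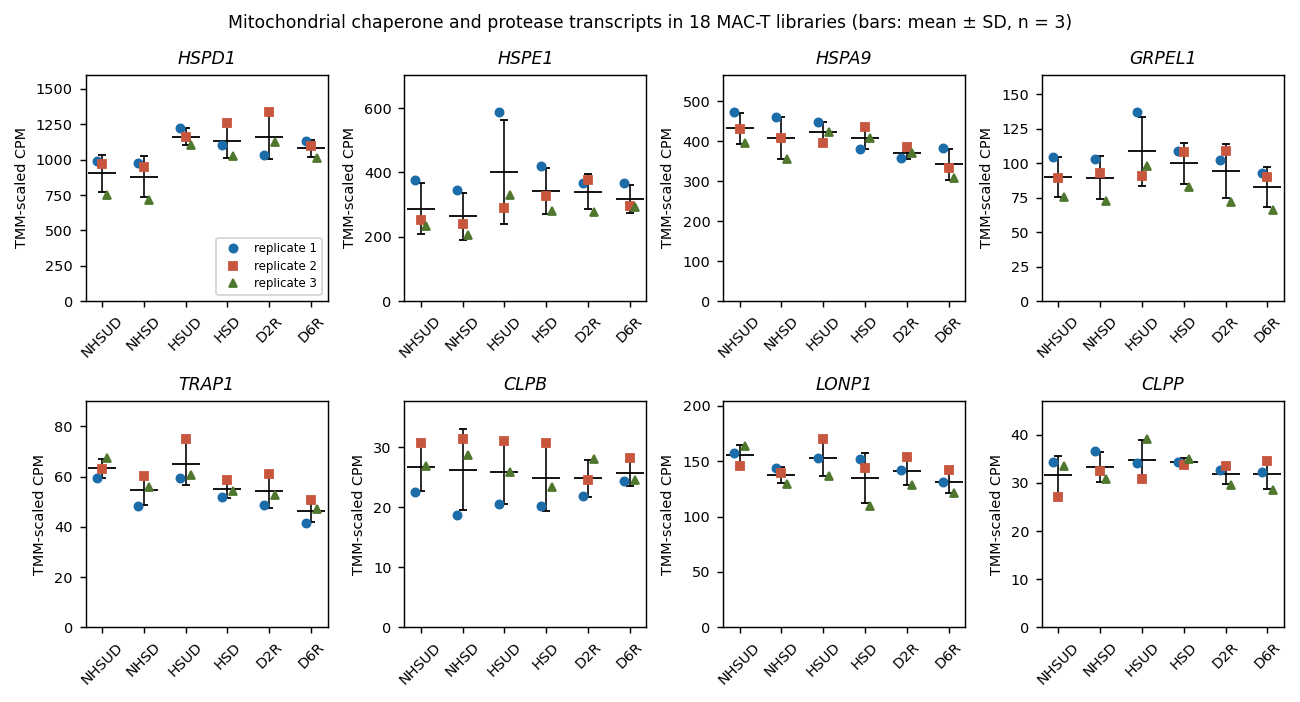
TMM-scaled CPM of each of the 8 genes (vertical axes, one panel a gene) in the 6 groups (horizontal axis); points are single libraries marked by run, and the bars give the mean ± SD of 3 libraries. HSPD1 has every heated or recovering library (1014 CPM or more) above every unheated one (991 CPM or less), while the other 7 genes overlap between those sets.

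None of the 8 genes was called (edgeR quasi-likelihood test, adjusted p under 0.05) in any of the 9 planned comparisons. DESeq2 called none either. All genes gave few calls too: 0.125% were called on heating in UD cells, 0.099% in D cells, 0.0792% at 2 h and 0.0132% at 6 h. Against the end of heat 0.0528% were called at 2 h and 0.066% at 6 h. Between the unheated media, between 2 h and 6 h and for the interaction of heat and medium the share was 0%. With the run as a block these shares were 0.633%, 0.554%, 0.224% and 1.45%, then 0.389% and 3.27%, then 0.0066%, 0% and 0%, and again no member was called. The smallest blocked adjusted p of edgeR over these comparisons was 0.104, for TRAP1 between 6 h and the end of heat.

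Heat was then compared over both media at once, 6 heated against 6 unheated libraries, a comparison added after the data had been seen. HSPD1 was 1.29-fold (95% interval 1.10 to 1.51; log2 0.36 ± 0.11) and HSPE1 1.35-fold (1.03 to 1.77; log2 0.43 ± 0.19), with edgeR adjusted p = 0.180 and 0.462. Without the block these were the 2 members below 0.05 unadjusted, as were 10% of all genes. With the run as a block both passed (log2 0.37 ± 0.08, edgeR adjusted p = 0.0071 for HSPD1; 0.43 ± 0.09, edgeR adjusted p = 0.0102 for HSPE1). Called genes made up 0.785% of all genes without the block and 6.10% with it, 3.13% in the higher direction. The HSPD1 groups did not overlap, as for 0.904% of all genes in that direction. Both media of a run shared a plate, so the 6 libraries of a condition are not 6 independent heat treatments. When they were summed to 3 heated and 3 unheated plates, HSPE1 still passed (log2 0.42; blocked edgeR adjusted p = 0.0211) and HSPD1 did not (log2 0.37; 0.0858). Without run 2 the blocked HSPD1 call was lost (log2 0.39; edgeR adjusted p = 0.0614). Without run 3 both were lost (log2 0.29 and edgeR adjusted p = 0.317 for HSPD1, 0.40 and 0.226 for HSPE1). The HSPE1 difference without the block went from 0.43 to 0.24 when the first HSUD library was left out. With the block it went from 0.43 to 0.34 (edgeR adjusted p = 0.0486). Over the 15 blocked fits that left out a library or a run, HSPE1 was called in 14 (log2 0.34 to 0.51). HSPD1 was called in 13 of them (0.29 to 0.43). Run 3 was also the run with the largest HSPD1 difference (log2 0.54, against 0.24 and 0.34 in runs 1 and 2).

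Of the cell type markers tested, TP63 alone passed on heating over both media, and only with the block, as did 6.10% of all genes. TP63, a transcription factor of basal epithelium, was lower (blocked log2 -0.38 ± 0.10, edgeR adjusted p = 0.0295; -0.45 ± 0.35 and 0.687 without the block). Of the 4 basal markers 2 were higher and 2 lower, and their summed level was 12435 to 17160 CPM in NHSUD, 11496 to 13359 in NHSD, 12426 to 18624 in HSUD and 10431 to 15785 in HSD. Of the 3 leukocyte markers CD68 was the one abundant enough to be tested, and it was higher by 0.50 ± 0.23 (log2; edgeR adjusted p = 0.491; blocked 0.144). The leukocyte markers summed to 0.720 to 1.34 CPM in NHSUD, 1.01 to 1.495 in NHSD, 1.41 to 1.98 in HSUD and 1.58 to 1.69 in HSD. The part of these cell types in the HSPD1 and HSPE1 differences was not tested.

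HSPA9, which receives proteins at the inner membrane, had no such difference at the end of heat. It measured 473, 430 and 395 CPM in NHSUD and 447, 396 and 424 CPM in HSUD. In D cells it measured 460, 407 and 355 CPM before and 381, 435 and 407 CPM after heat. The groups overlapped in both media and the runs differed in sign. Over both media the heated level was 0.989-fold the unheated one (95% interval 0.870 to 1.12). That interval does not reach the HSPD1 fold but overlaps the HSPD1 interval given above. In recovery the HSPA9 values were 357, 387 and 370 CPM at 2 h and 384, 334 and 309 CPM at 6 h. The 6 h level was 0.840-fold the NHSD level (0.701 to 1.01), lower in 3 of 3 runs, as were 20.4% of all genes. This did not pass the test (edgeR adjusted p = 0.853; blocked 0.212).

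The unequal behaviour of the chamber and the matrix HSP70 was compared directly as the ratio of their CPM within a library. The choice of these ratios followed the values above, so the test describes what was already seen. HSPD1 over HSPA9 was 2.08 ± 0.170 (SD, n = 3) in NHSUD and 2.15 ± 0.160 in NHSD. It was 2.76 ± 0.160 in HSUD and 2.77 ± 0.220 in HSD, and 3.13 ± 0.292 at 2 h and 3.17 ± 0.195 at 6 h. Every heated library (2.52 to 2.93) thus had a higher ratio than every unheated one (1.91 to 2.33). The ratio rose 1.31-fold on heating, in 6 of 6 pairs of the same run and medium (exact permutation of the heat label within runs, two-sided p = 0.00926, the smallest its 216 arrangements allow; adjusted over 3 ratios 0.0139). HSPE1 over HSPA9 rose 1.35-fold, also in 6 of 6 pairs, with the same exact permutation p. For that ratio the heated (0.687 to 1.31) and unheated (0.581 to 0.798) libraries overlapped. HSPD1 over HSPE1 was 0.969-fold, higher in 3 of 6 pairs (exact permutation p = 0.694), and its group means stayed between 3.15 and 3.47. The permutation counts the media of one plate separately, although they shared it. An exact permutation of 3 heated against 3 unheated plates cannot go below p = 0.1. The smaller p therefore adds no support beyond the values.

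GRPEL1, the exchange factor of HSPA9, had differences of the same sign as the chaperonin pair on heating. Its values were 104, 89.6 and 75.3 CPM in NHSUD and 137, 90.6 and 98.3 CPM in HSUD. In D cells they were 103, 92.9 and 72.3 CPM unheated and 109, 108 and 82.6 CPM heated. Each of the 6 heated libraries was above its partner of the same run, but the groups overlapped. Higher in 3 of 3 runs were 17.7% of all genes in UD cells and 16% in D cells. The difference was 0.28 ± 0.20 (log2) in UD and 0.16 ± 0.20 in D cells. Over both media it was 1.16-fold (95% interval 0.941 to 1.44; log2 0.22) and did not pass the test (edgeR adjusted p = 0.636; blocked 0.0829). In the fit without the block and without the first HSUD library, the log2 difference was 0.07 in UD cells and 0.12 over both media. Without the third NHSD library it was 0.03 in D cells. With the block the value over both media was 0.18 without the first HSUD library (0.22 with all). With scaling by library size alone and no block the difference was 0.16 in UD cells, 0.08 in D cells and 0.12 over both media. After 2 h GRPEL1 stood at 102, 109 and 72.0 CPM. After 6 h it had 93.0, 89.7 and 66.3 CPM, below the end of heat in 3 of 3 runs (as were 21.2% of all genes). The log2 difference was -0.27 ± 0.20 (edgeR adjusted p = 0.730, blocked 0.144), or -0.15 with scaling by library size alone.

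TRAP1, the mitochondrial HSP90, had its lowest values at 6 h. It measured 59.5, 62.9 and 67.3 CPM in NHSUD and 59.5, 75.2 and 60.8 CPM in HSUD. In D cells it measured 48.3, 60.1 and 55.8 CPM unheated, and 52.1, 58.8 and 54.4 CPM heated. Over both media heat gave 1.02-fold (95% interval 0.890 to 1.17), with runs of either sign. At 2 h the values were 48.5, 61.2 and 52.6 CPM, within the NHSD range or just above it. At 6 h they were 41.7, 50.5 and 47.1 CPM, all below the HSD libraries (as for 6.62% of all genes). The difference from HSD was -0.25 ± 0.13 (log2) and that from NHSD -0.24 ± 0.13, each lower in 3 of 3 runs (21.2% and 20.4% of all genes). Neither passed (edgeR adjusted p = 0.637 and 0.893; blocked 0.104 and 0.178). With scaling by library size alone the TRAP1 difference from HSD was -0.12, and that of HSPA9 went from -0.25 to -0.13.

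CLPB, the disaggregase of the intermembrane space, had the smallest share of variance between groups among the 8 genes. Its libraries lay between 18.6 and 31.5 CPM, and all 6 groups overlapped. Heat over both media gave 0.957-fold (95% interval 0.772 to 1.19), and at 6 h the level was 0.981-fold the NHSD level (0.725 to 1.33). Run 1 was low in CLPB (mean 21.4 CPM against 29.4 and 26.2 CPM in runs 2 and 3), the opposite of HSPE1 and GRPEL1.

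The proteases had small differences on heating and in recovery. LONP1, the ATP-dependent protease of the matrix, measured 157, 146 and 163 CPM in NHSUD and 153, 170 and 136 CPM in HSUD. In D cells it measured 144, 139 and 129 CPM unheated and 152, 144 and 109 CPM heated. Its heated level was 0.985-fold over both media (95% interval 0.861 to 1.13), and the groups overlapped. In recovery it lay between 121 and 154 CPM, with 0.957-fold the NHSD level at 6 h (0.791 to 1.16). CLPP, the peptidase, lay between 27.2 and 39.2 CPM in all 18 libraries. Heat gave 1.06-fold for CLPP (0.929 to 1.22), and at 6 h it was 0.954-fold the NHSD level (0.788 to 1.16).

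**Figure D2:**
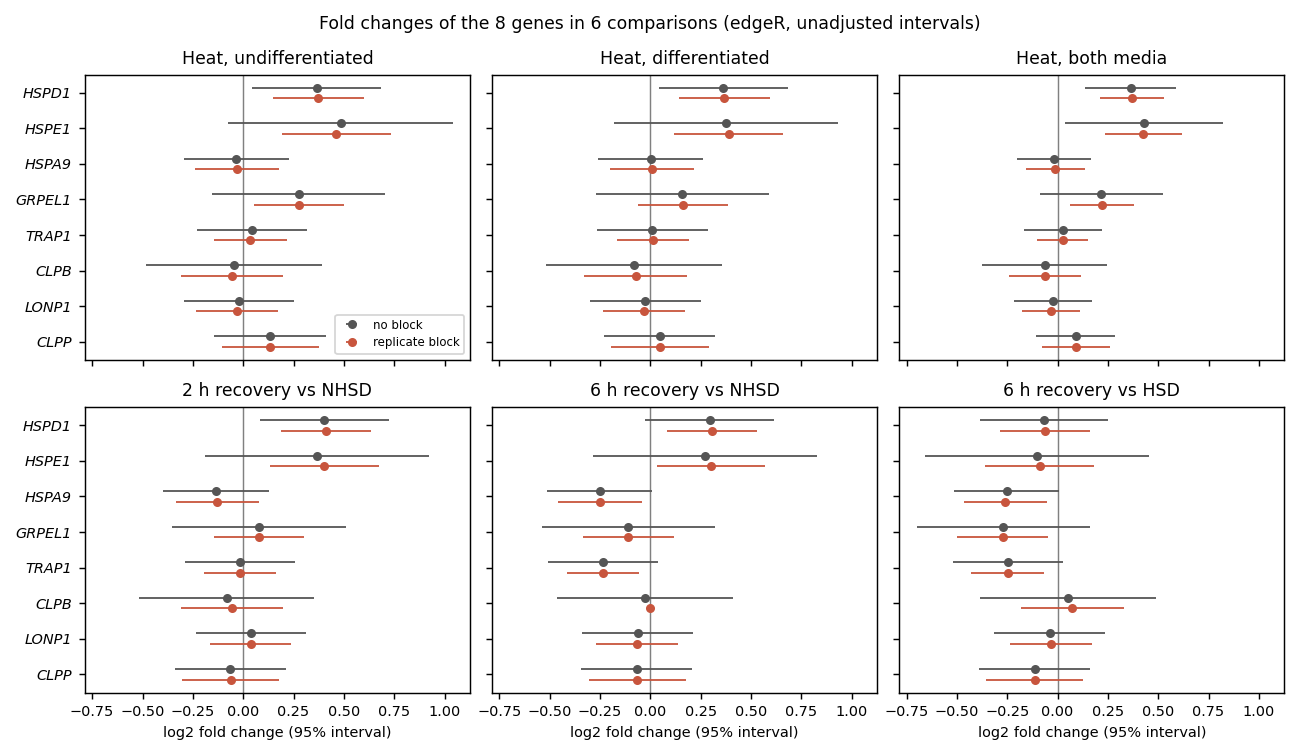
Log2 fold changes of the 8 genes (rows) with 95% intervals in 6 comparisons (panels), without the block (dark) and with the run as a block (red). HSPD1 and HSPE1 lie right of 0 in the 5 comparisons with unheated cells and near 0 between 6 h and the end of heat. The calls were those of HSPD1 and HSPE1 in the blocked comparison over both media, and the blocked CLPB value at 6 h is drawn without an interval.

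The 8 genes differed in sign during recovery. From the end of heat to 6 h, 7 of 8 differences were negative, with a median of -0.11 (log2) against 0.01 over all genes, but only 3 of 8 (HSPA9, TRAP1 and GRPEL1) with scaling by library size alone. That scaling moved the all-gene median of this comparison to 0.14. At 6 h against NHSD, 2 members (HSPD1 and HSPE1) were higher and 6 lower, with a median of -0.07 against -0.00 over all genes (5 lower by library size alone). HSPD1 and HSPE1 were above NHSD in 3 of 3 runs, as were 20.3% of all genes. HSPA9, TRAP1 and GRPEL1 were below it in 3 of 3 runs, as were 20.4% of all genes. The 2 h, 6 h and heat comparisons in D cells share the NHSD libraries, so these signs are not independent of each other.

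In the lactogenic medium without heat 7 of the 8 members had lower values (5 by library size alone), and none passed. HSPD1, HSPE1, HSPA9, TRAP1 and LONP1 were lower in 3 of 3 runs, and TRAP1 and LONP1 had the largest differences. TRAP1 was -0.21 ± 0.13 (log2) and lower in 3 of 3 runs, as were 18.8% of all genes. LONP1 was -0.18 ± 0.13, and its 3 NHSD libraries (129 to 144 CPM) were all below its 3 NHSUD libraries (146 to 163 CPM), as for 2.31% of all genes. Both gave edgeR adjusted p near 1.00 (blocked 0.835 and 0.978). The 15 matrix enzymes, taken as a gauge of mitochondrial content, were all lower in that comparison (median -0.14 against -0.00 over all genes), 11 of them in 3 of 3 runs and none called. By library size alone 13 of the 15 were lower. The part of mitochondrial content in the TRAP1 and LONP1 values was not tested. Over unheated and heated cells, a comparison also added after seeing the data, TRAP1 was 0.855-fold in the lactogenic medium (95% interval 0.747 to 0.978; edgeR adjusted p = 1.00; blocked 0.0991). LONP1 was 0.883-fold (0.772 to 1.01; blocked 0.267). Without the block edgeR called 0% of all genes in this comparison, and with it 0.805%. HSPD1 was 0.973-fold (0.832 to 1.14). Among the matrix enzymes GLUD1 passed with the block and was lower (blocked log2 -0.35 ± 0.07, edgeR adjusted p = 0.0141).

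Epithelial markers also differed between the media with the block. The basal keratin KRT14 was lower in the lactogenic medium (blocked log2 -0.72 ± 0.12, edgeR adjusted p = 0.0117; -0.76 ± 0.33 and 1.00 without the block), with means of 640 CPM in NHSUD, 371 in NHSD, 587 in HSUD and 351 in HSD. CLDN4, a tight junction protein of luminal epithelium, was higher (blocked 0.42 ± 0.09, edgeR adjusted p = 0.0208; 0.45 ± 0.20 and 1.00 without the block), with means of 88.5, 117, 88.4 and 125 CPM in the same order. Of the 4 basal markers 1 was higher and 3 lower, and of the 5 luminal and general markers 2 were higher and 3 lower. The luminal and general markers summed to 5717 to 7303 CPM in NHSUD, 5272 to 7232 in NHSD, 6930 to 8129 in HSUD and 6738 to 7360 in HSD, and the sums of the basal markers are given above. The part of these markers' cell types in the TRAP1 and LONP1 values was not tested.

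Group and run took very different shares of each gene's variance. For HSPD1 59.3% of the variance of log2 CPM over the 18 libraries lay between groups and 22.9% between runs. TRAP1 (65.1% and 26.9%) and HSPA9 (55.5% and 14.8%) were also mostly ordered by group. For HSPE1 the runs took 54.8% and the groups 29.3%, and for GRPEL1 60.1% and 23.0%. CLPB was at the far end with 72.5% between runs and 2.98% between groups. For CLPP 70.6% was explained by neither, and LONP1 split evenly (35.9%, 31.1% and 33.0% for neither). The median gene had 27.6% between groups and 34.9% between runs.

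**Figure D3:**
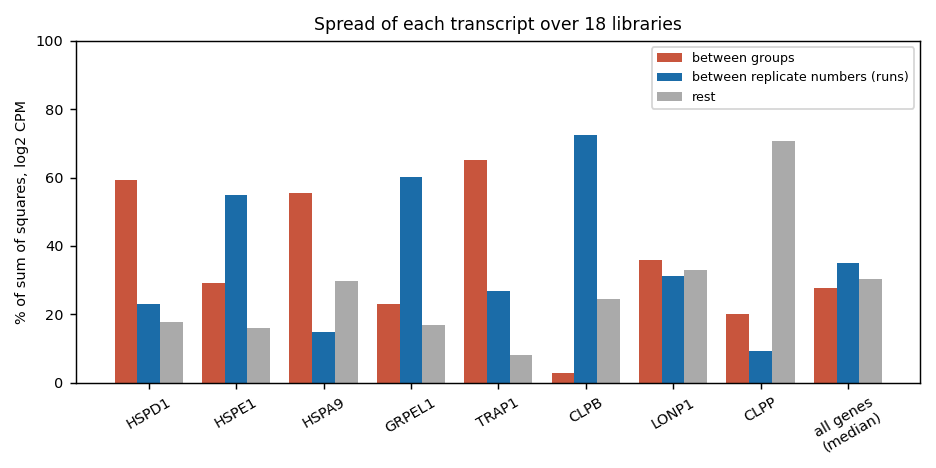
Percent of each gene's variance in log2 CPM over 18 libraries that lay between groups, between runs or in neither (bars of 3 colours), with the median over all genes tested. HSPD1, HSPA9 and TRAP1 have more than 55% between groups, whereas HSPE1, GRPEL1 and CLPB have more than 54% between runs.

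After each run's mean was subtracted, HSPD1 and HSPE1 were the closest pair of members over the 18 libraries (Pearson r = 0.85). TRAP1 and LONP1 followed (r = 0.78), then HSPE1 and GRPEL1 (r = 0.74) and GRPEL1 and CLPP (r = 0.65). HSPA9 went with TRAP1 (r = 0.61) but not with HSPD1 (r = -0.01). CLPB was opposite to HSPE1 (r = -0.47). These values describe libraries that share groups, plates and scaling, and have no test. Over 9762 genes with a mean of at least 5 CPM, the patterns most like HSPD1 were those of PPID (r = 0.96), CACYBP (r = 0.96) and FKBP7 (r = 0.92). PPID is cyclophilin 40, a co-chaperone of cytosolic HSP90, and CACYBP encodes calcyclin-binding protein. HSPE1 was 24th on that list. For HSPA9 the nearest were BAG1 (r = 0.96), a nucleotide exchange factor of cytosolic HSP70, XRCC5 (r = 0.95) and IDH3A (r = 0.94). For the other members the nearest fellow member ranked 31st (TRAP1 for LONP1), 139th (HSPD1 for HSPE1), 164th (LONP1 for TRAP1), 198th (GRPEL1 for CLPP) or lower.

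The other genes of the mitochondrial folding and quality system were few among the calls. The edgeR test without the block called no gene of the 5 mitochondrial lists in any comparison. On heating over both media 4 of them were below 0.05 unadjusted, as were 10% of all genes. The blocked calls of that comparison given below stand beside 6.10% of all genes called with the block. On heating over both media, all 6 partners of mitochondrial HSP70 were higher (5 by library size alone), with a median of 0.19 (log2) against 0.00 over all genes. GRPEL2, a paralogue of GRPEL1, passed with the block (blocked log2 0.27 ± 0.08, edgeR adjusted p = 0.0435). All 14 genes of presequence import and the membrane scaffold were higher as well (median 0.16; 10 by library size alone), and the scaffold protein PHB passed with the block (blocked log2 0.31 ± 0.08, edgeR adjusted p = 0.0245). Of 14 further proteases 11 were higher (median 0.05; 6 by library size alone), and IMMP1L, a subunit of the inner-membrane peptidase, passed with the block (blocked log2 0.30 ± 0.08, edgeR adjusted p = 0.0335). Of 15 matrix enzymes 10 were higher (median 0.05; 3 by library size alone), and OGDH was lower with the block (blocked log2 -0.29 ± 0.08, edgeR adjusted p = 0.0390).

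Regulators and reporters of the mitochondrial unfolded protein response were evenly split on heating, 7 of 14 higher (median 0.01; 6 by library size alone). GDF15, a secreted stress cytokine, passed with the block and was lower (blocked log2 -0.51 ± 0.14, edgeR adjusted p = 0.0367). From the end of heat to 6 h GDF15 was higher instead (blocked log2 0.85 ± 0.19, edgeR adjusted p = 0.0274). Of all genes 3.27% were called with the block in that comparison. All 14 import and scaffold genes were lower there (median -0.24 against 0.01 over all genes, 10 by library size alone). Of these, 12 were lower in 3 of 3 runs, as were 21.2% of all genes. The matrix enzyme MDH2 fell by 0.34 ± 0.09 (blocked log2; edgeR adjusted p = 0.0426), and 13 of the 15 matrix enzymes were lower (median -0.18; 11 by library size alone). The part of mitochondrial content in the lower TRAP1 and HSPA9 values at 6 h was not tested. Of the 14 regulators and reporters 8 were higher between 6 h and the end of heat (median 0.05, 11 by library size alone). Against NHSD 5 were higher at 2 h (median -0.06, 2 by library size alone) and 10 at 6 h (median 0.15, 12 by library size alone). Between 2 h and 6 h 10 were higher (median 0.23, 13 by library size alone). Beside GDF15 none was called in these comparisons.

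**Figure D4:**
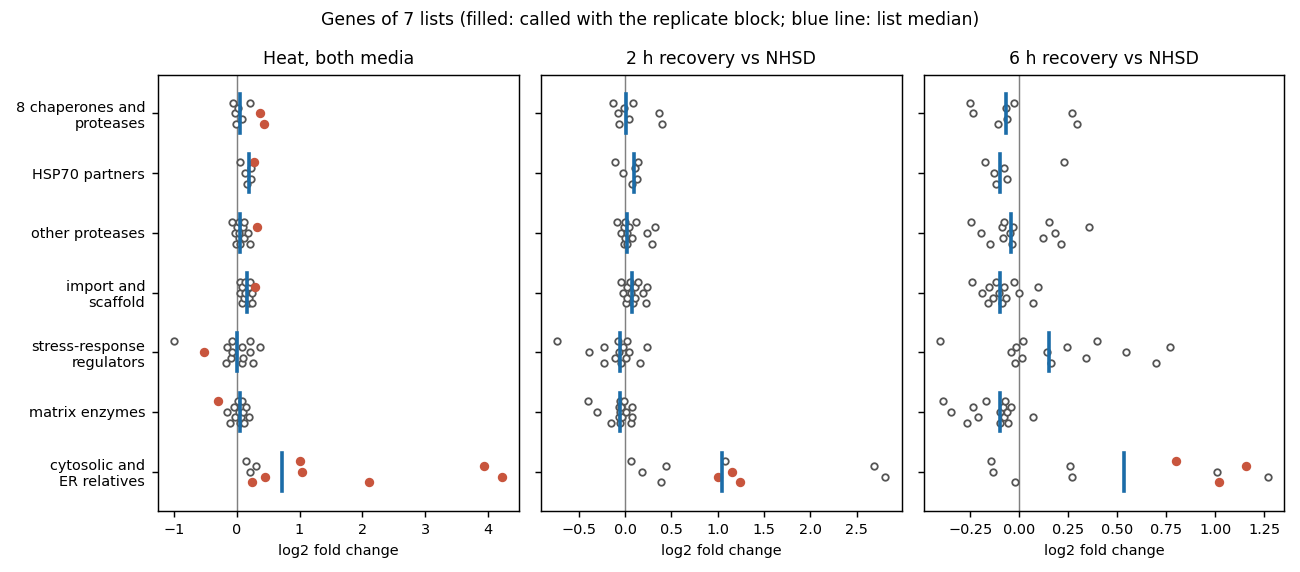
Log2 fold changes of single genes (points; filled where called with the block) in 7 lists (rows), for heat over both media, 2 h and 6 h of recovery (panels, each with its own axis); blue lines are list medians. The cytosolic and endoplasmic reticulum relatives reach 4.23 on heating, whereas the 8 mitochondrial genes lie between -0.25 and 0.43 in these panels.

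The relatives of the 8 genes outside the mitochondrion had larger differences. On heating over both media, 10 of 10 cytosolic and endoplasmic reticulum relatives were higher (median 0.73; 10 by library size alone), and edgeR without the block called 6. HSPA1A, the inducible cytosolic HSP70, rose by 4.23 ± 0.39 (log2; edgeR adjusted p = 1.4e-05). DNAJB1, its J-domain partner, rose by 3.93 ± 0.19 (edgeR adjusted p = 3.4e-09), HSPH1, a nucleotide exchange factor of cytosolic HSP70, by 2.11 ± 0.32 (0.0026) and the constitutive HSP70 HSPA8 by 1.04 ± 0.19 (0.0119). HSP90AA1, the inducible cytosolic HSP90, rose by 1.01 ± 0.10 (edgeR adjusted p = 4.9e-05). In single media HSPA1A, DNAJB1 and HSP90AA1 were called without the block and HSPA8 with it (blocked log2 1.10 ± 0.21 in UD and 1.01 ± 0.21 in D cells; edgeR adjusted p = 0.0170 and 0.0348). From the end of heat DNAJB1 was lower by 2 h (-2.84 ± 0.26; edgeR adjusted p = 5.9e-05), as were DNAJB1 (-3.65 ± 0.27; 2.2e-06) and HSPA1A (-3.08 ± 0.52; 0.0355) by 6 h, and HSPA8 with the block (blocked log2 -1.15 ± 0.21; 0.00958).

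At 2 h the endoplasmic reticulum HSP90, HSP90B1, was 1.01 ± 0.11 above NHSD (edgeR adjusted p = 0.00118) and the HSP70 HSPA5 was 1.15 ± 0.19 above it (edgeR adjusted p = 0.0267). HSP90AA1 (1.23 ± 0.15; edgeR adjusted p = 0.00156) and HSPH1 (2.81 ± 0.46; 0.0267, blocked 0.116) were above NHSD at 2 h too. At 6 h HSP90AA1 (1.16 ± 0.15; edgeR adjusted p = 0.0036) and HSP90B1 (1.02 ± 0.11; 0.000953) were called, and HSPA5 with the block (blocked log2 0.79 ± 0.16; 0.0143). Against the end of heat HSP90B1 was higher at both times (0.70 ± 0.11 and 0.72 ± 0.11; edgeR adjusted p = 0.0201 and 0.0184), and HSPA5 at 2 h with the block (blocked log2 0.79 ± 0.16; 0.0225). At 2 h their mitochondrial counterparts TRAP1 and HSPA9 stood at -0.02 ± 0.13 and -0.13 ± 0.12. The cytosolic chaperonin subunits CCT2 (0.21 ± 0.17) and TCP1 (0.16 ± 0.10), which do the work of HSPD1 in the cytosol, did not pass on heating (edgeR adjusted p = 0.709 and 0.604).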

How the data were processed

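Messenger RNA of 18 MAC-T libraries was read as 1 table of gene counts. The counts were made by the authors from reads trimmed with fastp 0.23.2, aligned with STAR 2.7.9a to ARS-UCD 1.3 and counted with featureCounts 2.0.3, per the submitters' processing notes. The sources used here do not give strand or multiple-mapping settings. Of counts from 1 to 10, 74.2% were even, so the number of independent fragments behind a count is uncertain. Per the labels' protocols each library pooled the RNA of 2 technical replicates, and the whole experiment was repeated 3 times.

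From the counts, edgeR 4.0.16 (R 4.3.3) fitted all 18 libraries by its quasi-likelihood test after a low-count filter (filterByExpr, minimum count 10) and TMM scaling (factors 0.883 to 1.09). P-values were adjusted by Benjamini-Hochberg over 15158 genes, with calls at adjusted p under 0.05. CPM are TMM-scaled, ± beside a log2 fold change is its SE, and intervals are 95% and not adjusted for the number of tests. CPM are not divided by length, so levels of different genes were not compared; a ratio of genes was compared only between groups. The biological coefficient of variation was 24.5%, or 14% with the block. An exact permutation of 3 against 3 libraries cannot go below p = 0.1.

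The replicate number was taken as the run that pairs libraries, an inference from the titles and these data. After group means were removed, all 45 pairs of libraries with the same number correlated at 0.135 to 0.596. Other pairs had a median of -0.199. The fit with the number as a block is called blocked.

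All 8 genes are named throughout. Other genes of 6 lists (74 genes, 73 tested) are named where called without or with the block, at most 4 a list and comparison (those of largest absolute log2 difference), and the 3 most similar genes are named for HSPD1 and HSPA9 (Pearson r of log2 CPM with prior count 2). The members and lists were chosen with earlier results of these data known. Gene neighbours were read from RefSeq's ARS-UCD2.0 table, which held all 8 genes, without coordinates. Alternatives were other scalings, filters and sample sets, DESeq2 1.42.0, the block, and leaving out each library. The edgeR fits without and with the block were tried on simulated counts with changes in HSD alone and no run or plate effect. That trial does not check the comparison over both media or the permutation of ratios.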

Additional observations from a re-analysis of the deposited data

How the results depend on the processing

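No member was called in any of the 9 planned comparisons under any alternative run, including the replicate block and leaving out single libraries. For heat over both media, 0 members were called by edgeR without the block, 1 by the DESeq2 Wald test (HSPD1, adjusted p = 0.0489), 2 with the replicate block and 2 with the block and each of 6 second choices. With the block and the media summed per plate the number was 1. Leaving out single libraries gave 0 without the block, and leaving out single libraries or whole runs with it gave 0 to 3; the third gene was GRPEL1 without HSUD replicate 2 (adjusted p = 0.0028). Scaling by library size alone, which moved the all-gene median from 0.00 to -0.09 on heating, turned TRAP1 and CLPP in that comparison to -0.067 and -0.0066 (-0.071 and -0.0059 with the block). It turned HSPD1, HSPE1, LONP1 and CLPP between 6 h and the end of heat to 0.056, 0.016, 0.083 and 0.014. Without one library at a time, small log2 values crossed 0. On heating over both media the ranges were -0.061 to 0.032 for HSPA9, -0.031 to 0.063 for TRAP1, -0.068 to 0.043 for LONP1 and -0.16 to 0.011 for CLPB. With the block, and with whole runs left out as well as single libraries, the first 3 of these had other ranges. They were -0.091 to 0.058, -0.014 to 0.082 and -0.11 to 0.078. Again without the block and one library at a time, the ranges at 6 h against NHSD were -0.22 to 0.13 for CLPB, -0.12 to 0.0060 for CLPP and -0.23 to 0.029 for GRPEL1. Against the end of heat they were -0.13 to 0.022 for HSPD1, -0.23 to 0.067 for HSPE1 and -0.17 to 0.052 for LONP1, and for HSPD1 between the unheated media -0.15 to 0.084. The causes were not tested. With the block, calls over all genes went from 19 to 96 and 15 to 84 on heating in UD and D cells, from 12 to 34 at 2 h, from 2 to 220 at 6 h, from 8 to 59 between 2 h and the end of heat, from 10 to 496 between 6 h and the end of heat, and from 119 to 925 over both media. The smallest count of a member in any library was 830, for CLPB, and the number of libraries (3 a group) limits the precision.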

Other observations

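The 19 genes in which all 12 heated or recovering libraries exceeded all 6 unheated ones, were chosen after their values were seen and were not tested for any shared function. SERPINH1, the collagen chaperone of the endoplasmic reticulum, had a mean of 305 CPM unheated and 758 CPM heated or recovering. FKBP4, a co-chaperone of HSP90, had means of 186 and 354 CPM, HSPB1, a small heat shock protein, 913 and 1800.2 CPM, and DNAJA4, a J-domain co-chaperone, 169 and 283 CPM. The others beside HSPD1 were HSPH1, HSP90AA1, HSP90AB1, HSPA6, P4HA1, LOC101907322, ZSCAN20, CLK4, SLA2, BANP, PAPD5, LGALS4, SPOP and LINS1. Of the 8 mitochondrial genes HSPD1 alone was in that set, with the narrow margin of 991 against 1014 CPM.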
